A study of Mus musculus with 8 samples.

Results

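Matricellular proteins are secreted into the extracellular matrix but do little to bear load. They bind collagens, fibronectin, growth factors and integrins, and so set how cells attach, migrate and lay down fibres. In teeth, tenascins and periostin are best known from the dental follicle and periodontal ligament, and osteonectin (Sparc) and osteopontin (Spp1) from mineralizing tissue. The 10 genes described here were taken as a fixed list by symbol: the tenascins Tnc and Tnn, periostin (Postn), Sparc and its relative Sparcl1, Spp1, the thrombospondins Thbs1, Thbs2 and Thbs3, and fibronectin (Fn1). All 10 matched 1 identifier each among the 56748 genes of the table, and all 10 passed the filter on low counts, which kept 21508 genes.

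The RNA came from sorted tdTomato-positive mouse cells of lower-jaw molars at postnatal day 10, after a tamoxifen pulse at postnatal day 3. The 4 cKO libraries have the genotype label Ctnnb1(-/-) and the 4 cHet libraries the label Ctnnb1(+/-). Ctnnb1 encodes beta-catenin, the transcriptional partner of TCF/LEF factors in Wnt signalling. By these labels both groups have lost at least 1 copy, and no wild-type library was analysed here. The labels call the cells CXCL12+ apical papilla cells, the soft tissue below the growing root, while the tissue field reads dental pulp and the protocol speaks of follicle cells. They name neither the driver of the recombinase nor the deleted exons, nor whether a library is 1 animal or a pool.

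Total counts lay between 44444033 and 50051392 per library (exact permutation p = 0.171 between groups). Ctnnb1 had 262 CPM in cKO7, 229 in cKO9, 313 in cKO14 and 305 in cKO15, against 304 CPM in cHet8, 246 in cHet11, 209 in cHet12 and 271 in cHet14, where CPM is the count relative to the library total after trimmed-mean (TMM) scaling. The groups overlapped (log2 0.11, SE 0.15, adjusted p = 0.785), and a count over the whole gene cannot show the loss of single exons, so it does not check the labels. Besides mesenchyme, the libraries held transcripts of other tissues. The 10 markers of olfactory neurons summed to between 6319 and 7819 CPM in cKO and between 7215 and 13075 CPM in cHet, and the 6 markers of ameloblasts, the enamel-forming cells, to between 4699 and 8535 CPM in cKO and between 2308 and 11432 CPM in cHet. The 14 mesenchyme markers summed to between 13455 and 26678 CPM in cKO and between 3469.6 and 11949 CPM in cHet, so the groups did not overlap in this sum. Most of it came from the collagen genes Col1a1, Col1a2 and Col3a1, each of which overlapped between groups. The mean log2 CPM of the 14 markers also overlapped, with cKO9 (7.32) below cHet8 (7.37). In these bulk samples, fewer cells of a type and less RNA per cell cannot be told apart.

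Transcripts of Tnc and Thbs3 were higher in cKO, and no member was called lower. By edgeR's quasi-likelihood test with Benjamini-Hochberg adjustment over all genes, 2 of the 10 members had an adjusted p under 0.05 in the direction of cKO, where 1.08% of all genes tested did. In the lower direction edgeR called 0 members and 0.0558% of all genes. DESeq2 (561 of 22290 genes lower) and limma voom (271 of 21508) also called 0 members. At an unadjusted p under 0.05, 6 members were higher and 0 lower, where 10.8% of all genes were higher and 6.33% lower. In 3 members, Tnc, Thbs3 and Postn, every cKO library stood above every cHet library, as in 6.46% of all genes. All 10 fitted log2 values were positive, with a median of 1.23, against −0.027 over all genes tested. DESeq2 called 5 members higher (6.24% of all genes) and limma voom 4 (5.96%), adding Postn, Thbs2 and, by DESeq2, Sparc. Tnc and Thbs3 were the members called with relative-log-expression size factors (0.832% of all genes), with library size alone (0.888%), without a filter (0.586%) and with a filter of 1 CPM in 4 libraries (1.7%). Without cHet8 they were again the 2 members called (0.698%), while without cKO9 Tnc, Thbs3, Postn and Sparc were called (3.67%), and without both libraries Tnc, Thbs3, Postn and Thbs2 (5.23%). Leaving out cHet11 (0.0181%), cKO7 or cKO15 (0.0357% each) or cKO14, cHet12 or cHet14 (0 genes higher each) left no member called.

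**Figure D1:**
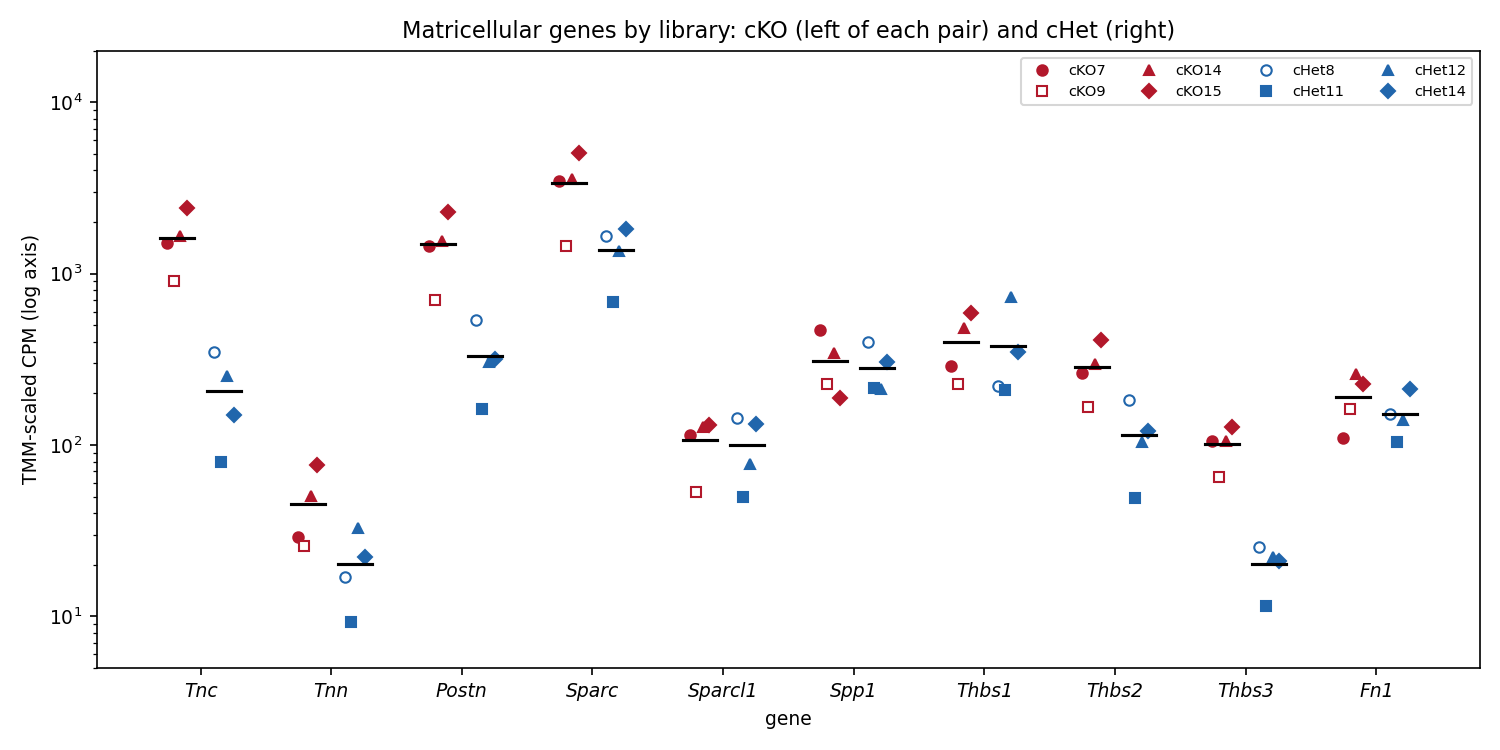
TMM-scaled CPM (log axis) of the 10 genes in each library, cKO in red on the left of each pair and cHet in blue on the right, with open symbols for cKO9 and cHet8 and a black bar at the group mean of 4 libraries. Tnc, Postn and Thbs3 have no overlap between groups, while Spp1, Sparcl1, Thbs1 and Fn1 overlap over most of their range.

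Tenascin C, a many-armed glycoprotein that loosens the hold of cells on fibronectin, had the largest fitted log2 difference of the members. Tnc (ENSMUSG00000028364.16) had 1509 CPM in cKO7, 904 in cKO9, 1664 in cKO14 and 2418 in cKO15, against 347 CPM in cHet8, 79.3 in cHet11, 254 in cHet12 and 150.1 in cHet14. The lowest cKO library, cKO9, was above the highest cHet library, cHet8. Tnc rose to 1624 ± 622 CPM in cKO, against 207 ± 117 CPM in cHet (SD, n = 4 each), 7.83-fold (log2 2.97, SE 0.49, adjusted p = 0.0399). The call held without cKO9 (adjusted p = 0.0239) and without cHet8 (0.0417). It ended without cKO7 (0.105), cKO14 (0.133), cKO15 (0.124), cHet11 (0.0782), cHet12 (0.0890) or cHet14 (0.148), with log2 values between 2.70 and 3.33 over the 8 omissions. The transcript 8030451A03Rik, which shares 176 exon bases with Tnc on the opposite strand, averaged 1.79 CPM in cKO and 2.001 CPM in cHet, far below Tnc itself.

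Thbs3, a pentameric thrombospondin known in mice for a part in skeletal maturation, was the other called member. Thbs3 (ENSMUSG00000028047.12) had 105 CPM in cKO7, 64.8 in cKO9, 106 in cKO14 and 128 in cKO15, against 25.5 CPM in cHet8, 11.5 in cHet11, 22.0 in cHet12 and 21.1 in cHet14. Every cKO library was more than 2 times the highest cHet library, cHet8. Thbs3 rose to 101 ± 26.2 CPM in cKO, against 20.1 ± 5.98 CPM in cHet, 5.02-fold (log2 2.33, SE 0.29, adjusted p = 0.0283). Its call likewise held without cKO9 (0.0112) and cHet8 (0.0347), and the adjusted p was between 0.0642 without cHet11 and 0.123 without cKO14 for the omissions of cKO7, cKO14, cKO15, cHet11, cHet12 and cHet14. In the GENCODE M21 annotation 318 exon bases of Thbs3 overlap Mtx1 on the opposite strand, and the kit does not mark strand. Mtx1 stood at 25.0 CPM in cKO and 23.9 CPM in cHet, close in level to Thbs3 in cHet.

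Periostin, a fasciclin-domain protein that binds collagen and tenascin C and aids collagen cross-linking in the periodontal ligament, showed the same arrangement without passing the test. Postn (ENSMUSG00000027750.17) had 1455 CPM in cKO7, 699 in cKO9, 1543 in cKO14 and 2299.5 in cKO15, against 539.8 CPM in cHet8, 163 in cHet11, 304 in cHet12 and 318 in cHet14. The groups did not overlap, though cKO9 lay near cHet8. The means were 1499 ± 655 CPM in cKO and 331 ± 156 CPM in cHet, 4.53-fold (log2 2.18, SE 0.44, adjusted p = 0.0592). Without cKO9 Postn was called (2.41, adjusted p = 0.0253), and it was also called by DESeq2 (4.28e-05) and limma voom (0.0138).

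The promoters of Tnc, Thbs3 and Postn, the members whose groups did not overlap, are shown with that of Spp1, whose groups did. RefSeq windows (GRCm38.p6) were found for 7 of the 10 genes, and the 250 bases before the annotated start are printed, in capitals where a searched motif was found. The motifs, searched on both strands, were a TATA box (TATAAA or TATATAA, which can overlap), the core of a TCF/LEF site (CTTTGA or CTTTGT), a RUNX site (AACCACA) and an AP-1 site (TGANTCA). Where RefSeq gives several starts, the one with a TATA box nearest the start or with most matches is shown.
Tnc, chr4:64046937-64047186, minus strand: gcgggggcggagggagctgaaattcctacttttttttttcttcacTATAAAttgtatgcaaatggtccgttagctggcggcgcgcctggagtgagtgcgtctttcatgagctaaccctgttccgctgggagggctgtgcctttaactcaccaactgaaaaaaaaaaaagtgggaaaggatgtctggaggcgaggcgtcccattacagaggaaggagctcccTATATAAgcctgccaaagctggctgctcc
Thbs3, chr3:89214930-89215179, plus strand: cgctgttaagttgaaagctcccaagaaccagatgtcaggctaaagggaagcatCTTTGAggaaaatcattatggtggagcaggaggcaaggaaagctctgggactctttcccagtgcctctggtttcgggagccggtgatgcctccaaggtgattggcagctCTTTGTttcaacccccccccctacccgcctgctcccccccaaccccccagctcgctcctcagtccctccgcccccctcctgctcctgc
Postn, chr3:54360857-54361106, plus strand: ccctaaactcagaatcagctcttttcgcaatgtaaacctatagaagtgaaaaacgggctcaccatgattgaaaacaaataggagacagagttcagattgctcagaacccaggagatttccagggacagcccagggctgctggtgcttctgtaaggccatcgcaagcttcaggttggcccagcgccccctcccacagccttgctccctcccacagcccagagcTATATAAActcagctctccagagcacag
Spp1, chr5:104434861-104435110, plus strand: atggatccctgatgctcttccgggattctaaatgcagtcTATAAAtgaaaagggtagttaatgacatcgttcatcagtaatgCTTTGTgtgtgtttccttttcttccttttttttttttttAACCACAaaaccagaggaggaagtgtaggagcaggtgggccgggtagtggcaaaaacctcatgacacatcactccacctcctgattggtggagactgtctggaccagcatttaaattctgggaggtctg
In Tnc a TATA box began at position -29 and another at -205, counted from the start. In Postn the overlapping TATATAA and TATAAA began at -28 and -26. Thbs3 had no TATA box in this window but CTTTGA at -197 and CTTTGT at -88. Spp1 had TATAAA at -211, CTTTGT at -168 and AACCACA at -129. Of all 32851 RefSeq windows of the same 250 bases before a start, 13.8% held a TATA box, 27.6% a TCF/LEF core, 4.40% the RUNX site and 6.75% the AP-1 site. Of the 10 windows of the members, 5 held a TATA box, 3 a TCF/LEF core, 1 the RUNX site and 0 the AP-1 letters. These windows came from 7 genes and are not independent, since those of Tnc overlap and share a TATAAA. Counted by gene, 4 held the TATA letters somewhere in a window, 2 a TCF/LEF core (Spp1 and Thbs3) and 1 the RUNX site. Only Tnc and Postn had the TATA letters close to the start, at -29 and at -28 and -26. In Spp1 they began at -211, and in Thbs2 at -126 on the opposite strand. The shares over all windows are per window and not per gene.

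Tenascin-W, encoded by Tnn and known from bone surfaces and stem cell niches, had the lowest level per kilobase of the members in both groups. Tnn (ENSMUSG00000026725.18) had 29.0 CPM in cKO7, 25.8 in cKO9, 50.2 in cKO14 and 76.7 in cKO15, against 17.0 CPM in cHet8, 9.20 in cHet11, 32.5 in cHet12 and 22.0 in cHet14. The groups overlapped, with cHet12 above cKO7 and cKO9, and the means were 45.4 ± 23.5 CPM in cKO and 20.2 ± 9.78 CPM in cHet (log2 1.17, SE 0.46, adjusted p = 0.245).

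Sparc and Sparcl1 encode related calcium-binding proteins, osteonectin and hevin, that act on collagen fibril assembly. Sparc (ENSMUSG00000018593.14) had 3458 CPM in cKO7, 1451 in cKO9, 3546 in cKO14 and 5077 in cKO15, against 1653 CPM in cHet8, 687 in cHet11, 1361 in cHet12 and 1829 in cHet14. It was the most abundant member in each of the 8 libraries, and cKO9 lay below cHet8 and cHet14. The means were 3383 ± 1487 CPM in cKO and 1383 ± 502 CPM in cHet (log2 1.29, SE 0.41, adjusted p = 0.172), and without cKO9 it was called (1.54, adjusted p = 0.0457). Sparcl1 (ENSMUSG00000029309.8) had 114 CPM in cKO7, 53.4 in cKO9, 127 in cKO14 and 130.0 in cKO15, against 143 CPM in cHet8, 49.5 in cHet11, 77.1 in cHet12 and 132 in cHet14. Both the lowest and the highest of the 8 values were in cHet, and the log2 value was 0.079 (SE 0.38, adjusted p = 0.947).

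Thbs1 and Thbs2 encode the trimeric thrombospondins, inhibitors of vessel growth, of which Thbs1 also activates latent TGF-beta. Thbs2 (ENSMUSG00000023885.10) had 264 CPM in cKO7, 166 in cKO9, 295 in cKO14 and 409 in cKO15, against 184 CPM in cHet8, 48.8 in cHet11, 104 in cHet12 and 121 in cHet14. Only cHet8 stood above a cKO library, cKO9. The means were 284 ± 100.2 CPM in cKO and 114 ± 55.5 CPM in cHet (log2 1.31, SE 0.40, adjusted p = 0.161). Thbs1 (ENSMUSG00000040152.9) had 291 CPM in cKO7, 226 in cKO9, 483 in cKO14 and 588 in cKO15, against 219 CPM in cHet8, 209.6 in cHet11, 731 in cHet12 and 350.3 in cHet14, with the highest value of all in cHet12 and a log2 value of 0.072 (SE 0.46, adjusted p = 0.961). cHet12 also had the highest sum of macrophage markers, 2804 CPM against 803 CPM in cHet8 and less than that in the other 6 libraries. Lyz2 made up most of it, and the part of these cells in the Thbs1 value was not tested.

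Osteopontin, an acidic phosphoprotein with an integrin-binding RGD motif, is made by mineralizing cells and by macrophages. Spp1 (ENSMUSG00000029304.15) had 469 CPM in cKO7, 228 in cKO9, 344 in cKO14 and 188 in cKO15, against 400.2 CPM in cHet8, 215 in cHet11, 212 in cHet12 and 304 in cHet14. The groups overlapped over nearly their whole range, and the highest cKO library, cKO7, was not the one highest in Tnc, cKO15, where Spp1 was at its lowest. The log2 value was 0.12 (SE 0.32, adjusted p = 0.898). The 7 macrophage markers summed to between 106 and 316 CPM in cKO and between 168 and 2804 CPM in cHet. All 7 had a negative log2 value, and at an unadjusted p under 0.05, 5 were lower, against 6.33% of all genes. edgeR and limma voom called 0 of them, and DESeq2 called 1, Adgre1, lower (561 of 22290 genes). The part of macrophages in the Spp1 level was not tested. The 8 markers of osteoblasts and cementoblasts summed to between 364 and 1074 CPM in cKO and between 125 and 375 CPM in cHet, and edgeR called 0 of them (4 higher and 1 lower at an unadjusted p under 0.05, against 10.8% and 6.33% of all genes, 4 higher by DESeq2 and 3 by limma voom, against 6.24% and 5.96%). The 7 osteoclast markers summed to between 74.7 and 203 CPM in cKO and between 38.0 and 127 CPM in cHet, most of it Ctsk, which ranged from 66.0 to 182 CPM in cKO and from 28.8 to 109.6 CPM in cHet (log2 0.99, adjusted p = 0.283). Of the 4 tested, 2 had a positive and 2 a negative log2 value, and edgeR, DESeq2 and limma voom called 0. At an unadjusted p under 0.05, 1 was higher, Ctsk, and 0 lower, against 10.8% and 6.33% of all genes. Calcr, Ocstamp and Dcstamp were at 0.828 CPM or less in every library. The part of osteoblasts, cementoblasts and osteoclasts in the Spp1 level was not tested.

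Fibronectin, the fibril-forming glycoprotein on which several of the others assemble, had no detectable difference at this spread. Fn1 (ENSMUSG00000026193.16) had 110.0 CPM in cKO7, 161 in cKO9, 259 in cKO14 and 227 in cKO15, against 151 CPM in cHet8, 104 in cHet11, 139.6 in cHet12 and 213 in cHet14. The lowest 2 libraries were 1 of each group, cHet11 and cKO7, and the log2 value was 0.32 (SE 0.30, adjusted p = 0.648). Endothelial cells also make Fn1, Sparc and Sparcl1, and the 8 endothelial markers summed to between 12.8 and 35.8 CPM in cKO and between 19.6 and 38.1 CPM in cHet, with Cdh5 at 0.604 CPM or less in each library. Their part in these levels was not tested.

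Per kilobase of exon, levels can be set beside each other across genes, with exon lengths from GENCODE M21 and so without regard to which isoform was made. In cKO the order was Sparc (893 ± 393 CPM per kb, SD, n = 4), Tnc (209 ± 80.1), Spp1 (187 ± 76.8), Postn (172 ± 75.2), Thbs1 (65.3 ± 27.6), Thbs2 (40.5 ± 14.3), Sparcl1 (36.2 ± 12.2), Thbs3 (20.9 ± 5.43), Fn1 (16.2 ± 5.71) and Tnn (7.81 ± 4.04). Of these neighbours in cKO, only Sparc and Tnc had ranges that did not overlap. In cHet the order was Sparc (365 ± 133), Spp1 (172 ± 54.0), Thbs1 (62.2 ± 40.2), Postn (38.0 ± 17.9), Sparcl1 (34.2 ± 15.2), Tnc (26.7 ± 15.1), Thbs2 (16.3 ± 7.93), Fn1 (12.99 ± 3.87), Thbs3 (4.16 ± 1.24) and Tnn (3.47 ± 1.68). There, Spp1 lay clear of Thbs1 and Fn1 clear of Thbs3, while the other neighbours overlapped. Tnc thus stood at rank 2 in cKO and rank 6 in cHet. Together the members took between 0.400% and 1.08% of all counts in cKO and between 0.172% and 0.381% in cHet.

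Ratios of family members within a library do not depend on how libraries are scaled, so they show whether relatives kept the same proportion. They can also shift with the mix of cells where relatives come from different cells, and that part was not tested. These 5 pairs, all the pairs within the 3 families, were chosen after the values were seen, and CPM ratios are read here only between groups. The adjustment over the 5 pairs does not cover that choice. The ratios reuse the values given above for each gene, and the thrombospondin pairs share genes, so they are not independent results. Tnc over Tnn was 52.0 in cKO7, 35.1 in cKO9, 33.1 in cKO14 and 31.5 in cKO15, against 20.4 in cHet8, 8.62 in cHet11, 7.80 in cHet12 and 6.81 in cHet14. Every cKO library had a higher ratio than every cHet library. How often ratios of other gene pairs stand apart in this way was not computed. Of single genes, 6.46% had every cKO library above every cHet library and 3.68% every cKO library below. The mean log2 ratio was 5.22 ± 0.33 in cKO and 3.30 ± 0.72 in cHet (SD, n = 4 each), a difference of 1.92 (exact permutation p = 0.0286, 0.0357 adjusted over the 5 pairs), where 0.0286 is the smallest p that 4 against 4 libraries can give. Sparc over Sparcl1 was 30.2 in cKO7, 27.2 in cKO9, 27.9 in cKO14 and 39.0 in cKO15, against 11.5 in cHet8, 13.9 in cHet11, 17.7 in cHet12 and 13.8 in cHet14, again with no overlap. The mean log2 ratio was 4.94 ± 0.24 in cKO and 3.81 ± 0.25 in cHet (SD, n = 4 each), a difference of 1.13 (exact permutation p = 0.0286, 0.0357 adjusted over the 5 pairs).

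Among the thrombospondins, Thbs3 stood higher relative to both others in cKO. Thbs3 over Thbs1 was 0.360 in cKO7, 0.287 in cKO9, 0.219 in cKO14 and 0.217 in cKO15, against 0.116 in cHet8, 0.0551 in cHet11, 0.0302 in cHet12 and 0.0604 in cHet14. The mean log2 ratio was −1.92 ± 0.35 in cKO and −4.10 ± 0.80 in cHet (SD, n = 4 each), a difference of 2.18 (exact permutation p = 0.0286, 0.0357 adjusted over the 5 pairs). Thbs3 over Thbs2 ranged from 0.312 to 0.396 in cKO and from 0.139 to 0.237 in cHet, also without overlap. The mean log2 ratio was −1.46 ± 0.16 in cKO and −2.42 ± 0.34 in cHet (SD, n = 4 each), a difference of 0.96 (exact permutation p = 0.0286, 0.0357 adjusted over the 5 pairs). Thbs2 over Thbs1 overlapped, since its value in cHet8, 0.837, was above 3 of the cKO libraries (difference 1.22, exact permutation p = 0.114, the same after adjustment).

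**Figure D2:**
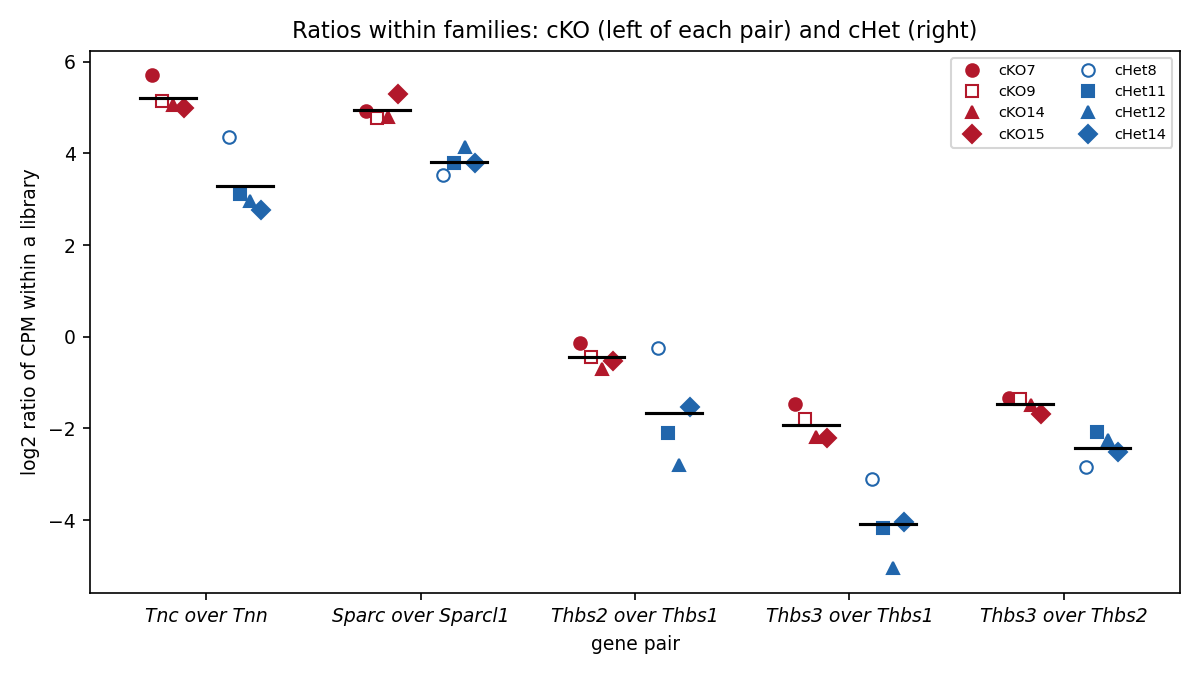
log2 ratio of CPM within each library for the 5 pairs of related genes, cKO in red on the left of each pair and cHet in blue on the right, open symbols for cKO9 and cHet8, black bars at the means of 4 libraries. Groups are apart for each pair except Thbs2 over Thbs1, where cHet8 lies among the cKO libraries.

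Many of the members varied alike across libraries, but not all. In cKO, cKO9 was the lowest library for 8 of the 10 members and cKO15 the highest for 8, while in cHet cHet11 was the lowest for 9 and cHet8 the highest for 6. Profiles were compared by the root mean square difference of standardized log2 CPM over the 8 libraries, where 0 is an identical shape. The closest pair was Tnc and Thbs3 (0.139), while the nearest member to Postn was Tnc (0.186) and to Thbs2 was Postn (0.216). Spp1 and Thbs1 were farthest apart (1.53). From the members' mean profile, which includes each of them, Sparc differed least (0.184), and Spp1 (1.13) and Thbs1 (0.920) most. Outside the list, genes among the nearest to the members' mean profile, of 13138 compared, were the collagen chain gene Col1a2 (0.146), B3galnt2, a glycosyltransferase gene (0.147), the protease inhibitor gene Timp2 (0.157) and the junction adhesion gene Jam3 (0.162), against a median of 1.32 over all genes compared. Col1a2 stood at 3412 ± 1482 CPM in cKO and 1701 ± 599 CPM in cHet, and Timp2 at 782 ± 280.0 CPM in cKO and 402 ± 134 CPM in cHet.

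**Figure D3:**
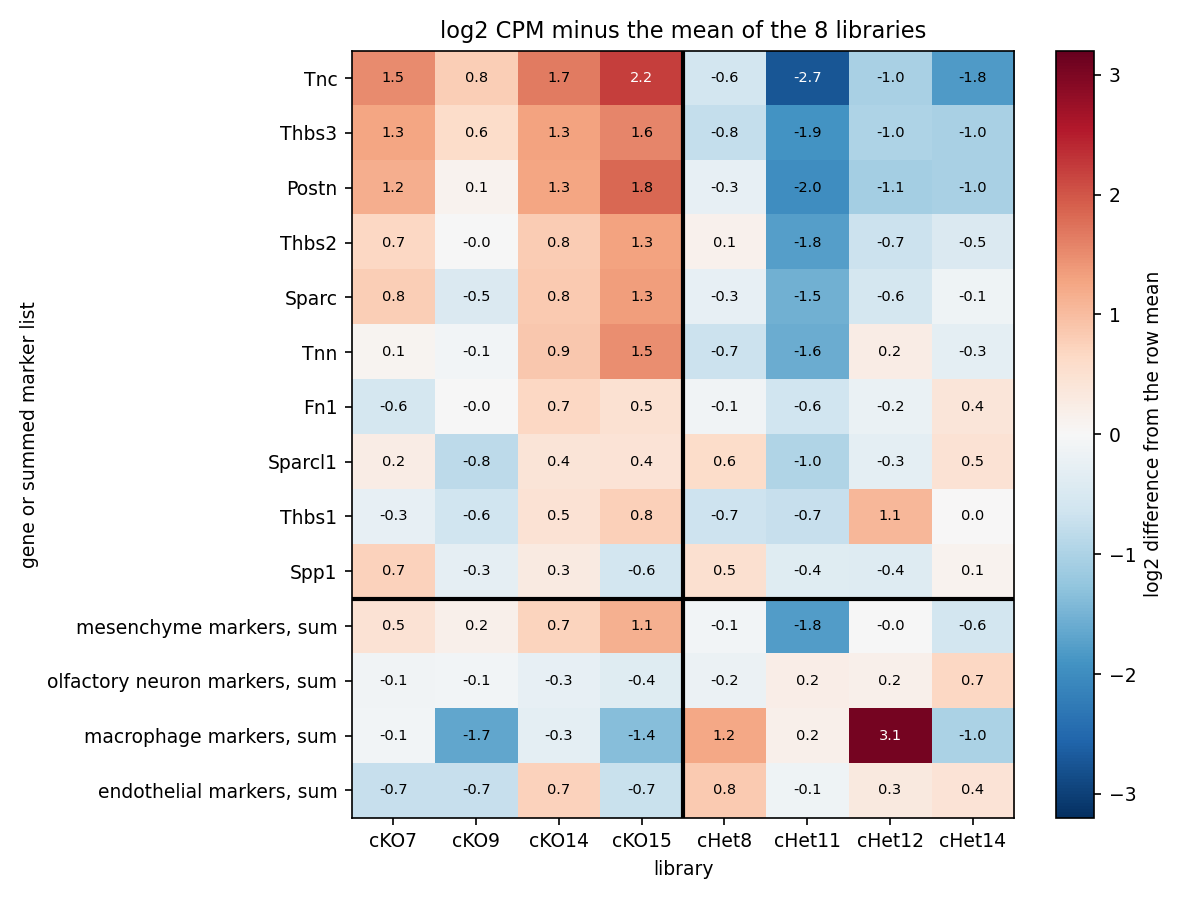
Each cell is the log2 CPM of a gene, or of a summed marker list, minus the mean of its row over the 8 libraries (cKO left of the black line, cHet right of it). Tnc and the mesenchyme sum are both lowest in cHet11 and highest in cKO15, and the macrophage sum is highest in cHet12, as is Thbs1.

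Most of the mesenchyme markers moved with these differences, 12 of the 14 with a positive log2 value. Lum (479 ± 189 CPM in cKO and 757 ± 403 CPM in cHet, log2 −0.66, adjusted p = 0.545 by edgeR) went the other way. So did Dcn (167 ± 37.0 CPM in cKO and 343 ± 225 CPM in cHet, log2 −1.04, adjusted p = 0.257). The sum of the 14, most of it Col1a1, Col1a2 and Col3a1, was lowest in cHet11 and highest in cKO15. Their score (mean log2 CPM) was 7.89 in cKO and 6.64 in cHet, a difference of 1.25 (exact permutation p = 0.0571). It ran from 7.32 to 8.34 in cKO and from 5.60 to 7.37 in cHet, so the groups overlapped in the score. Of the 14 markers edgeR called 1 higher, the homeobox gene Prrx1 (91.9 ± 19.0 CPM in cKO and 26.5 ± 11.2 CPM in cHet), and 0 lower, where 1.08% and 0.0558% of all genes were called. At an unadjusted p under 0.05, 10 were higher and 1 lower (10.8% and 6.33% of all genes), and DESeq2 (6.24%) and limma voom (5.96%) each called 8 higher. With that score as a covariate 7 of 21508 genes were called higher (0.0325%), and Tnc was 1 of them (log2 1.56, adjusted p = 0.0173). Thbs3 then had a log2 value of 1.48 (adjusted p = 0.106) and Postn of 0.90 (0.566). Sparc had 0.12, Thbs2 0.097 and Tnn −0.087 on the same scale.

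Scaling the libraries to equal mesenchyme sums shifted the median of all genes to −1.40. On that scale the log2 value was 1.84 for Tnc (adjusted p = 0.0595), 1.09 for Thbs3 (0.0603), 0.93 for Postn and between −1.19 and −1.01 for Thbs1, Sparcl1, Spp1 and Fn1, with no member called. Relative to the shifted median these were 3.24, 2.49, 2.34 and between 0.21 and 0.39. Relative to the median of the TMM-scaled fit, the same genes were at 2.99, 2.35, 2.21 and between 0.098 and 0.35. Taking the median away thus largely undoes the scaling, so these values do not show what remains at equal mesenchyme sums. With the olfactory neuron score as covariate no gene was called by edgeR (1314 at an unadjusted p under 0.05), with Tnc at 2.10 and Thbs3 at 1.95 (adjusted p = 0.551 for both).

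**Figure D4:**
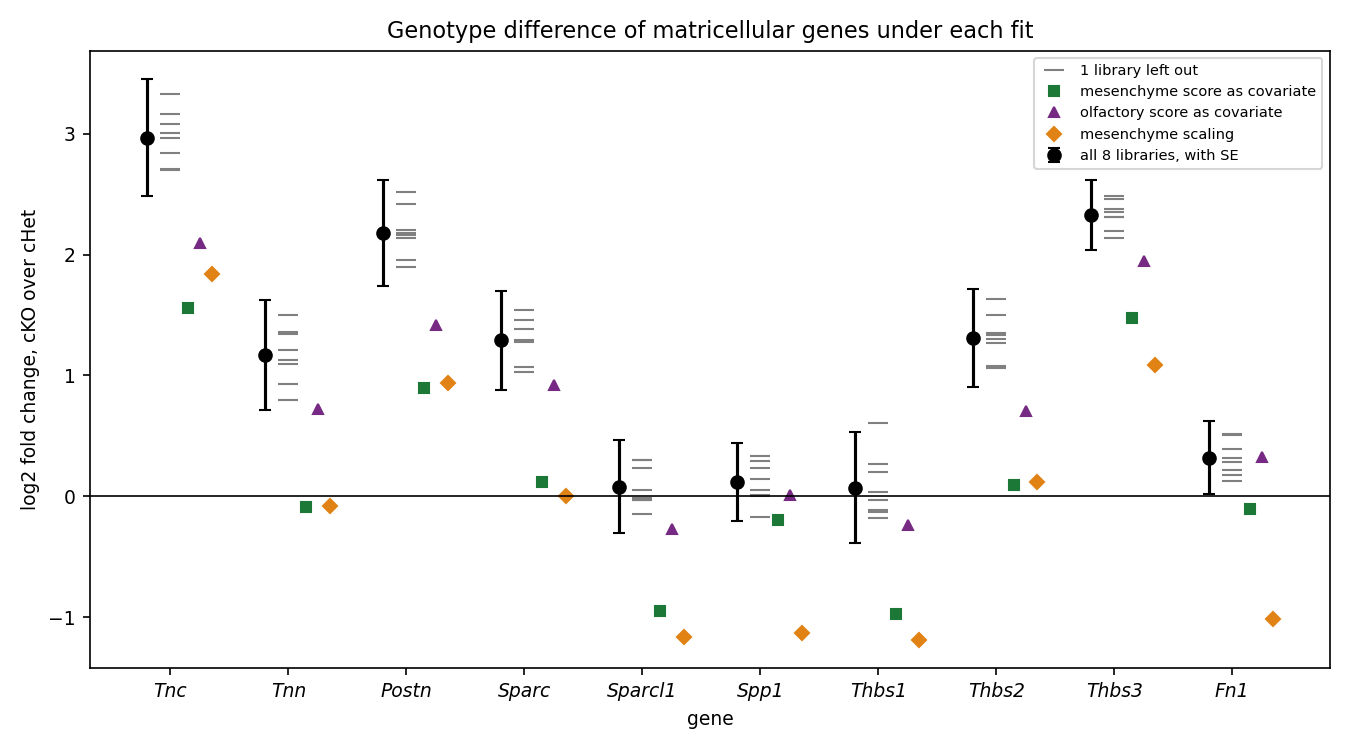
log2 fold change, cKO over cHet, of each gene: black points with SE for all 8 libraries, grey dashes for the fits that leave 1 library out, and coloured symbols for the fits with a mesenchyme or olfactory covariate and with mesenchyme scaling. Tnc, Postn, Thbs3, Sparc and Thbs2 stay above 0 in every fit shown, Sparc and Thbs2 narrowly so with the mesenchyme covariate or scaling. Tnn, Sparcl1, Spp1, Thbs1 and Fn1 have values on both sides of 0.

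Among 21 further matricellular genes, 20 were tested and 2 were called higher and 0 lower by edgeR (at an unadjusted p under 0.05, 5 higher and 2 lower, against 10.8% and 6.33% of all genes), where 1.08% of all genes were called higher. DESeq2 called 5 higher (6.24% of all genes) and 0 lower (561 of 22290 genes). limma voom called 5 higher (5.96%) and 1 lower (271 of 21508 genes). The called genes were Smoc1 and Smoc2, which encode calcium-binding relatives of Sparc. Smoc2 stood at 1087 ± 442 CPM in cKO and 241 ± 94.4 CPM in cHet (log2 2.18, SE 0.39, adjusted p = 0.0471), and Smoc1 at 25.8 ± 12.3 CPM in cKO and 6.20 ± 0.249 CPM in cHet (log2 2.06, SE 0.35, adjusted p = 0.0421). In 5 of the 20 tested genes, Smoc1, Smoc2, Tgfbi, Fstl1 and Spock3, every cKO library stood above every cHet library, as in 6.46% of all genes. In 0 of them every cKO library stood below, as in 3.68% of all genes. Tgfbi, the closest relative of periostin, stood at 525 ± 199 CPM in cKO and 99.4 ± 54.9 CPM in cHet (log2 2.40, SE 0.49, adjusted p = 0.0610). Fstl1, another gene with a Sparc-like domain, stood at 1229 ± 461 CPM in cKO and 359 ± 182 CPM in cHet (log2 1.78, SE 0.44, adjusted p = 0.0997).

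Relatives of the thrombospondins and of osteopontin gave no call. Thbs4, a pentameric thrombospondin like Thbs3, stood at 128 ± 67.4 CPM in cKO and 68.4 ± 28.9 CPM in cHet (log2 0.90, SE 0.48, adjusted p = 0.380). Comp, the cartilage member of that family, varied widely, from 0.141 to 47.6 CPM in cKO and from 0.510 to 144 CPM in cHet (SE 1.94 on the log2 scale). The acidic mineral-binding proteins akin to osteopontin were on both sides of 0: Ibsp had a log2 value of −0.29, Dmp1 of −0.049, Dspp of −1.23 and Mepe of 2.06, with adjusted p between 0.257 and 0.977. Of the CCN genes, Ccn3 stood lower at 69.1 ± 16.2 CPM in cKO and 98.2 ± 18.2 CPM in cHet (adjusted p = 0.234) and was called by limma voom alone.

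Receptors gave 1 call, higher in cKO, among 17 genes, where 1.08% of all genes were called higher. At an unadjusted p under 0.05, 5 were higher (10.8% of all genes), and 4 were called higher by DESeq2 (6.24%) and 4 by limma voom (5.96%). Lrp1, an endocytic receptor that takes up thrombospondins together with proteases, rose to 269 ± 74.4 CPM in cKO, against 67.6 ± 27.1 CPM in cHet (log2 1.995, SE 0.31, adjusted p = 0.0377). Itga5, the alpha chain of the classical fibronectin receptor, stood at 43.7 ± 13.2 CPM in cKO and 14.5 ± 5.69 CPM in cHet (log2 1.59, SE 0.34, adjusted p = 0.0673). Receptors with lower levels in cKO were not called by edgeR (0.0558% of all genes were). At an unadjusted p under 0.05, 2 were lower (6.33% of all genes). DESeq2 called 2 lower (561 of 22290 genes) and limma voom 1 (271 of 21508 genes). Cd36, a thrombospondin receptor, stood at 71.5 ± 10.3 CPM in cKO and 103 ± 6.41 CPM in cHet (adjusted p = 0.0860). Itga4, an integrin chain that binds fibronectin and osteopontin, stood at 5.64 ± 1.02 CPM in cKO and 13.7 ± 4.84 CPM in cHet (0.0868). In both, every cKO library was below every cHet library, as in 3.68% of all genes.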

How the data were processed

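The authors deposited whole-number gene counts, not normalized, for 8 libraries (4 cKO, 4 cHet), and these were used unchanged. Per the submitters' processing notes, reads went through Trim Galore and STAR, with GRCm39 and mm39 as builds; no source used here names the counter, the annotation or a version. Per the labels' protocols, a SMART-Seq v4 kit, which marks neither strand nor single molecules, produced the cDNA. Symbols were found for 52073 of 56748 identifiers, and for a repeated symbol the identifier with the largest total count was taken. The number in a column's name matches no sample title, so columns were mapped to a group and not to a sample. Nothing states that libraries are separate animals, so the p-values describe spread that could be technical. Log2 CPM correlated at 0.882 to 0.942 within groups and 0.858 to 0.943 across them.

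Genotype was the sole term of a quasi-likelihood fit in edgeR 4.0.16 (R 4.3.3), with TMM factors, the default filter by group and Benjamini-Hochberg adjustment over 21508 genes at a threshold of 0.05. The SE is the log2 value over the square root of F, an approximation. The common biological coefficient of variation was 0.553. Values per library were compared by exact two-sided permutation over 70 assignments, and a score averages log2 CPM (prior count 2) over its markers. Alternatives were DESeq2 1.42.0, limma 3.58.1 (voom with quality weights), other scalings, filters and covariates, and the omission of libraries. The fit was tested on simulated data.

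The members and lists were chosen with earlier results of these data known. All members are named, and from the relatives, receptors and matrix partners the called genes and then those with the smallest p, up to 4 a list. Thbs4, Comp, Ccn3, the acidic matrix genes, Mmp9, Mmp14, and the marker genes named were added after their values were seen. Of the 5 genes nearest to the members' mean profile, 1 is not reported here.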

Additional observations from a re-analysis of the deposited data

How the results depend on the processing

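Tnc and Thbs3 kept their direction in all 18 other fits; Tnc was called in 10 of them and Thbs3 in 9. Their log2 values lay between 1.56 and 3.55 for Tnc and between 1.09 and 2.65 for Thbs3. Of members called higher (2 in the fit reported), DESeq2 gave 5, limma voom 4, the mesenchyme covariate 1, mesenchyme scaling 0, the olfactory covariate 0, and the omission of both cKO9 and cHet8, chosen after seeing the data, 4 (Tnc, Postn, Thbs2 and Thbs3, where 5.23% of all genes were called higher). Leaving out 1 library gave between 0 and 4 members, with 0 for 6 libraries, 2 without cHet8 and 4 without cKO9. Over all genes, 232 were called higher and 12 lower, against 1390 and 561 by DESeq2, 1281 and 271 by limma voom, 7 and 3 with the mesenchyme covariate, 0 and 0 with the olfactory covariate (1314 at an unadjusted p under 0.05), 0 and 0 with mesenchyme scaling (11474 at an unadjusted p under 0.05) and 1129 and 243 without cKO9 and cHet8; without a filter 5 were lower. Leaving out 1 library gave between 0 and 816 higher and between 0 and 144 lower, the most without cKO9. The cause was not tested.

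Of the 8 members not called, Tnn, Sparcl1, Spp1, Thbs1 and Fn1 changed sign in some fits, while Postn (0.90 to 2.78), Sparc (0.0058 to 1.66) and Thbs2 (0.097 to 1.84) were above 0 in all 18 other fits. With mesenchyme scaling the log2 values were −0.079 for Tnn, −1.16 for Sparcl1, −1.13 for Spp1, −1.19 for Thbs1 and −1.01 for Fn1, and with the mesenchyme covariate −0.087, −0.95, −0.20, −0.97 and −0.10 for the same genes in that order. With library size alone Sparcl1 was at −0.020 and Thbs1 at −0.015, and with the olfactory covariate at −0.27 and −0.24. Leaving out 1 library gave a range of −0.15 to 0.30 for Sparcl1, −0.17 to 0.33 for Spp1 and −0.18 to 0.61 for Thbs1. No paired analysis was possible because the columns carry numbers that match no replicate number of the titles. The lowest value of a member was 9.20 CPM (Tnn in cHet11), at totals of at least 44444033, so errors reflect the spread between libraries more than depth.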

Other observations

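Enzymes and fibre proteins that act on the same matrix had 1 call higher and 0 lower among 19 tested genes by edgeR, where 1.08% of all genes were called higher. At an unadjusted p under 0.05, 9 were higher and 1 lower (10.8% and 6.33% of all genes). DESeq2 called 8 higher (6.24%) and 1 lower (561 of 22290 genes), and limma voom 8 higher (5.96%) and 0 lower (271 of 21508 genes). The called gene was Fbn1, the microfibril protein fibrillin, with 116 ± 30.2 CPM in cKO and 31.7 ± 15.1 CPM in cHet (log2 1.88, SE 0.35, adjusted p = 0.0497). Fbln1, a fibulin that binds fibronectin, stood at 520.5 ± 226 CPM in cKO and 119.9 ± 51.8 CPM in cHet (adjusted p = 0.0622), and Pcolce, an enhancer of procollagen processing, at 407 ± 186 CPM in cKO and 116 ± 54.8 CPM in cHet (0.120). The gelatinase gene Mmp2, whose product is cleared with thrombospondin by the receptor Lrp1, stood at 757 ± 288 CPM in cKO and 230.5 ± 111 CPM in cHet (0.105), and its activator Mmp14 at 570.1 ± 201 CPM in cKO and 213 ± 88.1 CPM in cHet (0.124). Mmp9, a gelatinase of neutrophils, macrophages and osteoclasts, ranged from 31.2 to 82.3 CPM in cKO and from 35.7 to 899 CPM in cHet, with its highest value in cHet12. That library also had the highest sum of macrophage markers, most of it Lyz2. The part of neutrophils, macrophages or osteoclasts in the Mmp9 value was not tested.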
